A study of Mus musculus with 6 samples.

Results

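The BCL2 family genes Bcl2, Bcl2l1, Mcl1, Bak1, Bid, Bad, Bcl2l11, Bik, Bmf and Bok were described in mRNA of GC-2 spd(ts) cells exposed to bisphenol A (BPA). They were taken from the mRNA table by gene symbol, from a list chosen with earlier results of these data known. The list leaves out other genes of the family, such as Bax, which are described separately. Of the 10 named genes, 9 had a row among the 22127 genes listed, and Bik was not analysed here. The BPA group received 120 µM BPA for 48 h, diluted from a stock in dimethyl sulfoxide (DMSO), and the control group received medium with 0.1% DMSO. Both were GC-2 spd(ts) cells, a mouse line labelled as derived from spermatocytes, and both had spent 12 h without serum before they were returned to medium with 10% serum. One RNA preparation per group was divided among an mRNA, a microRNA (miRNA) and a circular RNA (circRNA) library, 6 libraries in all. Each group therefore had 1 library per RNA class, so no difference between BPA and control has a replicate check or a test, and the intervals given are 95% intervals for counting error only. As background, the line was immortalised with SV40 large T antigen and carries a temperature-sensitive Trp53, so it is a model with an altered p53 pathway and represents 1 line.

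BCL2 family proteins set the threshold of mitochondrial apoptosis. The guardians BCL2, BCL-XL (encoded by Bcl2l1) and MCL1 hold back the effectors BAK (Bak1) and BAX, which open the outer mitochondrial membrane and release cytochrome c. The BH3-only proteins, here BID, BAD, BIM (Bcl2l11) and BMF, bind the guardians or activate the effectors. BOK resembles the effectors in sequence and can act without the other two. In the testis this balance sets how many germ cells survive spermatogenesis, and male mice without Bax are infertile.

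The mRNA libraries held 33071378 reads for BPA and 32312872 reads for control, and 20590 and 19887 genes had at least 1 read in BPA and control. Reads were divided by the authors' scaling factor of each library to give normalised reads, and 16870 genes with at least 10 reads in both libraries together were compared. All 9 members passed this filter. Defining spermatocyte markers were nearly absent. Of 15 germ cell markers 5 had a row, among them Sycp3, a synaptonemal complex protein, with 0 reads in BPA and 6 reads in control, and the RNA helicase Ddx4 with 9 reads in BPA and 0 reads in control. The germ cell marker with more reads was the chaperone gene Hspa2, with 588 reads in BPA and 411 reads in control. Fibroblast markers summed to 1939 CPM (reads scaled to library size) in BPA and 3916 CPM in control, mostly from Col1a1 and Col1a2. Col1a1 had 1190 CPM in BPA and 2452 CPM in control, and Col1a2 had 639 CPM in BPA and 1292 CPM in control. Of the 10 fibroblast markers 8 had a row. Among the low ones, Col3a1 had 65 reads in BPA and 80 in control, and Dcn 8 in BPA and 0 in control. All 7 fibroblast markers compared had a log2 ratio below 0. Sertoli cell markers summed to 151 CPM in BPA and 130 CPM in control, and Leydig, macrophage and epithelial markers to at most 7.95 CPM in BPA and 4.92 CPM in control. The part of these other markers in the results for the members was not tested.

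All 9 measured members had a lower normalised level in BPA than in control, by small amounts, with the direction of Bmf turned when libraries were scaled by their totals and that of Mcl1 when the trend over expression level was removed. In bulk RNA, fewer cells with a transcript and less of it in each cell cannot be told apart. Bcl2l11, which encodes BIM, and Bcl2 had the lowest ratios, at 0.680 and 0.730 times the control level. Bmf and Bok were near equality. No member was 2-fold different, where 11.5% of the 16870 compared genes were at least 2-fold different in either direction, 6.88% higher and 4.61% lower. The counting interval excluded equality for 7 members, each lower in BPA, and included it for 2. At this depth the interval excluded equality for 54.7% of all compared genes, 26.5% lower and 28.2% higher, and 48.1% of compared genes had a log2 ratio below 0. The median log2 ratio of the members was -0.24, beside 0.02 for all compared genes. The direction holds for this list only. With the other compared family genes included, 11 had a log2 ratio below 0 and 7 above, with a median of -0.06. In the authors' deposited table the p-values of the members lay between 0.189 for Bcl2l1 and 0.953 for Bmf, with adjusted p-values of 0.961 to 0.994.

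**Figure D1:**
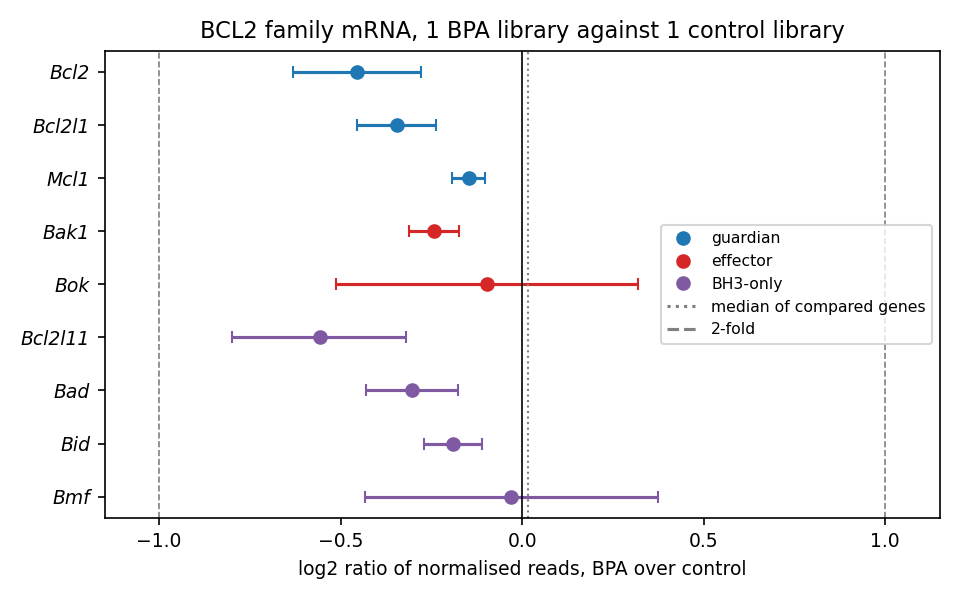
Log2 ratio of normalised reads, BPA over control, for the 9 measured members by role. Points are the ratio of 1 BPA library to 1 control library, bars the 95% counting interval, the dotted line the median of all compared genes and the dashed lines 2-fold. Every point lies left of 0 and inside 2-fold (Bmf would lie right of 0 with scaling by library total, and Mcl1 with the level trend removed), and the bars of Bok and Bmf cross 0.

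Among the guardians, Bcl2 lies at chr1:106538178-106714274 on the minus strand (GRCm38, GENCODE M21, as for all gene positions here). It had 477 reads in BPA and 605 reads in control, which are 458.9 and 628.9 normalised reads. The log2 ratio was -0.45, with a counting interval of -0.63 to -0.28. Of the compared genes, 13.7% had a lower ratio than Bcl2, so it stood in the lower part of the range without being extreme.

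Bcl2l1, at chr2:152780668-152831728 on the minus strand, encodes BCL-XL as its main product and the shorter, pro-apoptotic BCL-XS by splicing. Gene-level reads do not separate them. Bcl2l1 had 1277 reads in BPA and 1501 reads in control, or 1229 and 1560 normalised reads. The log2 ratio was -0.34, with an interval of -0.45 to -0.24.

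Mcl1, at chr3:95658788-95663176 on the plus strand, encodes a guardian with a very short-lived protein. It had 7278 reads in BPA and 7463 reads in control, the most of any member, or 7002 and 7757 normalised reads. Its log2 ratio of -0.15, with an interval of -0.19 to -0.10, was the closest to 0 of the guardians. With the trend of the ratio over expression level removed, the log2 ratio of Mcl1 was 0.014. The 3 guardians together had 8689 normalised reads in BPA and 9946 in control, a log2 ratio of sums of -0.19, interval -0.24 to -0.15.

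Among the effectors, Bak1 lies at chr17:27019810-27029009 on the minus strand. It had 3199 reads in BPA and 3505 reads in control, or 3078 and 3643 normalised reads. The log2 ratio was -0.24, with an interval of -0.31 to -0.17. Bok, at chr1:93685660-93695764 on the plus strand, had 100 reads in BPA and 99 reads in control, or 96.2 and 103 normalised reads. Its log2 ratio of -0.10 had an interval of -0.51 to 0.32, so a difference of Bok was not detectable at this depth.

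Among the BH3-only genes, Bcl2l11 at chr2:128126038-128162547 on the plus strand encodes BIM, which binds all guardians. It had 251 reads in BPA and 342 reads in control, or 241 and 355 normalised reads. Its log2 ratio of -0.56 was the lowest of the members, with an interval of -0.80 to -0.32, and 10.9% of compared genes had a lower one. Bad, at chr19:6941861-6951899 on the plus strand, encodes a BH3-only protein held inactive by phosphorylation and 14-3-3 binding. Bad had 944 reads in BPA and 1078 reads in control, or 908 and 1121 normalised reads. The log2 ratio of Bad was -0.30, with an interval of -0.43 to -0.18.

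Bid, at chr6:120891930-120916853 on the minus strand, links death receptors to mitochondria once caspase-8 cuts its protein. It had 2491 reads in BPA and 2633 reads in control, or 2397 and 2737 normalised reads. The log2 ratio of Bid was -0.19, with an interval of -0.27 to -0.11. Bmf, at chr2:118528757-118549687 on the minus strand, encodes a BH3-only protein tethered to dynein light chain on myosin motors. Bmf had 109 reads in BPA and 103 reads in control, or 105 and 107 normalised reads. Its log2 ratio was -0.03, with an interval of -0.43 to 0.37, so no difference of Bmf was detectable at this depth. The 4 BH3-only genes together had 3651 normalised reads in BPA and 4320 in control, a log2 ratio of sums of -0.24, interval -0.31 to -0.18. The 2 effectors together gave -0.24, interval -0.31 to -0.17, so the sums of the 3 roles had overlapping intervals. Each sum came mostly from 1 gene. In BPA, Mcl1 gave 7002 of 8689 guardian normalised reads, Bak1 3078 of 3174 effector ones and Bid 2397 of 3651 BH3-only ones. The sums therefore say little of the other genes of a role.

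The exons of 4 members overlap an exon of a gene on the opposite strand, and the strand setting of the read counting was not given in the sources used here. Bak1 shares 437 bases, 18.2% of its exons, with Ggnbp1, which had 143 reads in BPA and 36 in control, a log2 ratio of 1.85. Bad shares 524 bases, 20.5%, with Gpr137, which had 510 reads in BPA and 305 in control. Bid shares 628 bases, 17.7%, with another family gene, Bcl2l13, which had 5062 reads in BPA and 4707 in control. Bcl2 shares 558 bases, 6.09%, with the antisense gene D630008O14Rik. The other 5 members have no such overlap. For Bak1, Bad and Bid the overlapping gene had a higher ratio than the member, and reads shared with it cannot be told apart from the member's own.

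**Figure D2:**
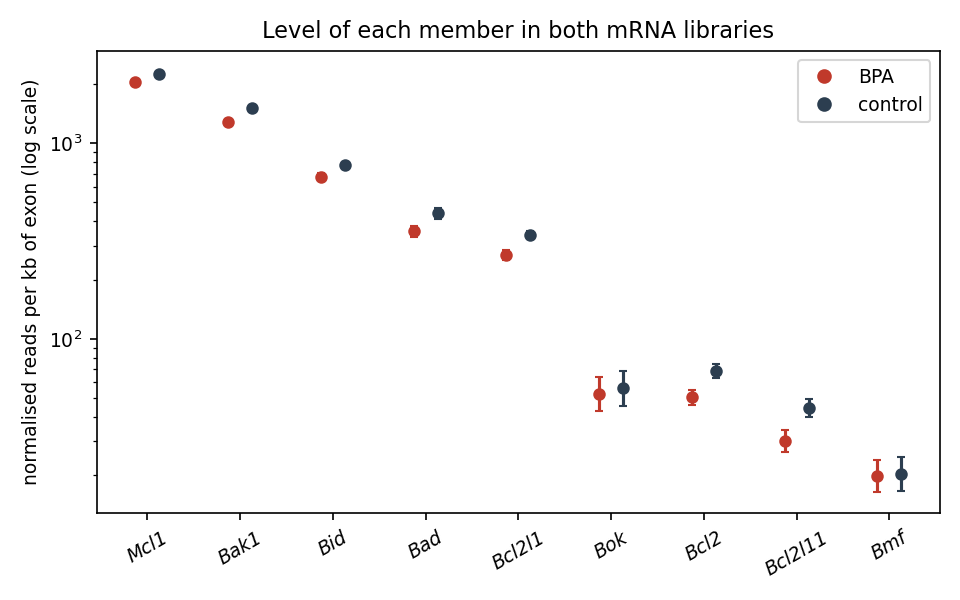
Normalised reads per kilobase of exon, on a log axis, for each member in the BPA library and the control library, with 95% counting intervals. Bcl2l1, with 268 in BPA and 340 in control, and the 4 members left of it stand apart from the remaining ones, of which the highest is Bok at 52.3 in BPA and Bcl2 at 68.7 in control.

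Levels of different members are compared as normalised reads per kilobase of exon. Mcl1 had the highest level, 2049 normalised reads per kilobase in BPA and 2270 in control, and Bmf the lowest, 19.96 in BPA and 20.38 in control, which is 103-fold below Mcl1 in BPA and 111-fold below it in control. Bak1 came next to Mcl1, with 1279 in BPA and 1514 in control. Then came Bid with 675 in BPA and 771 in control, Bad with 355 in BPA and 438 in control, and Bcl2l1 with 268 in BPA and 340 in control. These 5 members had the same order in both libraries, and the intervals of neighbours did not overlap.

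The order of the 4 lower members differed between the libraries, though not beyond counting error. In BPA the order below Bcl2l1 was Bok (52.3 normalised reads per kilobase), Bcl2 (50.1), Bcl2l11 (30.1) and Bmf (19.96), and in control it was Bcl2 (68.7), Bok (55.9), Bcl2l11 (44.3) and Bmf (20.38). Bok and Bcl2, which stood in opposite order, had overlapping intervals in both libraries, and Bok and Bcl2l11 overlapped in control as well. With the length of the longest transcript in place of all exons, 2 members had another place in control. Levels per kilobase were also ranked among all genes with an exon length and any read in either library, a wider set than the compared genes. Mcl1 was higher than 96.3% of that set in BPA and 96.5% in control, and Bmf was higher than 40.2% in BPA and 41.0% in control. Among the members, Mcl1 was the guardian and Bak1 the effector with the most mRNA per length in both libraries, and Bcl2 was the lowest guardian.

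Ratios of reads within a library do not depend on the scaling between libraries. Bcl2 had 0.149 reads per Bak1 read in BPA and 0.173 in control, a log2 odds ratio of -0.21, interval -0.40 to -0.02. Mcl1 had 2.28 reads per Bak1 read in BPA and 2.13 in control, a log2 odds ratio of 0.10, interval 0.01 to 0.18. Bcl2l1 had 0.399 in BPA and 0.428 in control, with an interval that included equality (log2 odds ratio -0.10, -0.23 to 0.03). By counting error alone, Bcl2 was lower and Mcl1 higher in BPA relative to Bak1, with intervals that ended close to equality. Bak1, and Bad used below, share exon bases with genes of higher ratio, and these ratios do not separate the shared reads. Against Bcl2l11, Mcl1 had 29.0 reads per read in BPA and 21.8 in control, a log2 odds ratio of 0.41, interval 0.17 to 0.66. The log2 odds ratios of Bcl2l1 (0.21, -0.05 to 0.48) and Bcl2 (0.10, -0.20 to 0.40) to Bcl2l11 were above 0 too. Their intervals included equality, and their direction was opposite to that against Bak1. Against Bad, Mcl1 had 7.71 in BPA and 6.92 in control (log2 odds ratio 0.16, 0.02 to 0.29), and Bcl2 had 0.505 in BPA and 0.561 in control (-0.15, -0.37 to 0.07).

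The members leave out other genes of the family, and most of these had ratios above 0. Of 15 further family genes 10 had a row and 9 were compared, of which 2 had a log2 ratio below 0 and 7 above, with a median of 0.18 (1 below and 8 above when scaled by library total). The interval lay above equality for 6 of them and below it for 1. Bax, the second effector, had 2481 reads in BPA and 2106 reads in control, a log2 ratio of 0.12, interval 0.04 to 0.21. Bbc3, which encodes the BH3-only protein PUMA, had 408 reads in BPA and 246 reads in control, a log2 ratio of 0.62, interval 0.39 to 0.85. Bnip3, a mitophagy receptor, was the lowest, with 6608 reads in BPA and 7131 reads in control, a log2 ratio of -0.22. The members and these genes together were 18, of which 11 had a log2 ratio below 0 and 7 above, with a median of -0.06.

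Bax and the genes of that list named next were chosen after their values were seen. Pmaip1, which encodes the BH3-only protein NOXA, a partner of MCL1, had 450 reads in BPA and 315 reads in control, a log2 ratio of 0.40, interval 0.19 to 0.62. The guardian gene Bcl2l2, encoding BCL-W, had 1343 reads in BPA and 1017 reads in control, a log2 ratio of 0.29, interval 0.17 to 0.41. Within each role, then, genes lay on both sides of equality: Bak1 below and Bax above, Bcl2 and Bcl2l1 below and Bcl2l2 above, Bcl2l11 and Bad below and Bbc3 and Pmaip1 above. Bcl2l15 had 28 reads in BPA and 0 reads in control, and the counting interval of its log2 ratio began at 2.72. With 3 reads in the control library standing for its floor, Bcl2l15 was 8.64-fold higher in BPA. It was the only one of the 9 past 2-fold.

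**Figure D3:**
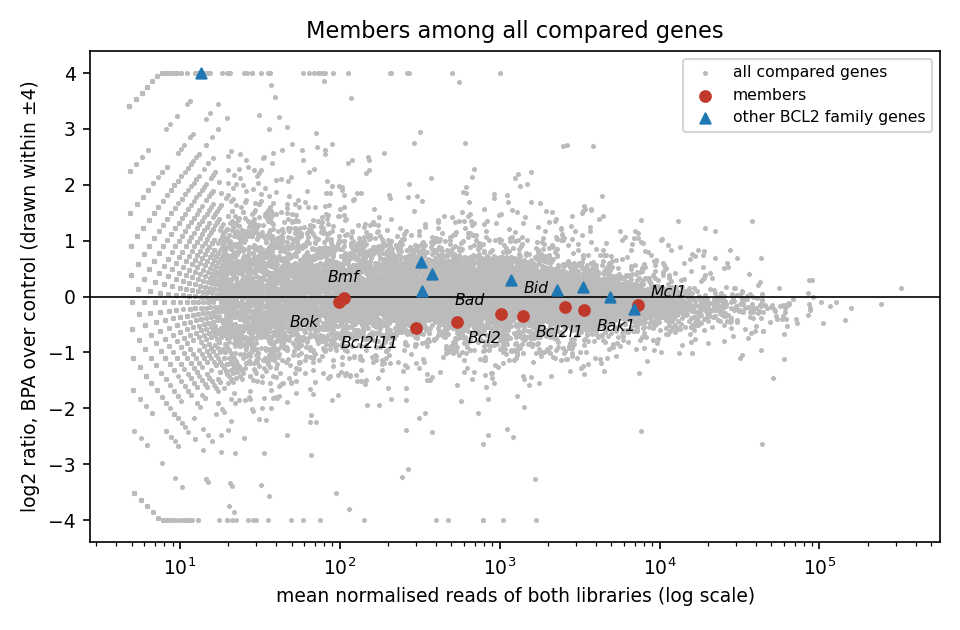
Log2 ratio, BPA over control, against the mean normalised reads of both libraries on a log axis. Grey points are the 16870 compared genes, red points the members and blue triangles the other BCL2 family genes, and ratios beyond 4 in size are drawn at 4. The members lie inside the grey cloud and below 0 at the deposited scaling (Bmf is above 0 by library total, Mcl1 with the level trend removed), and 7 of the 9 triangles lie above 0.

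Genes that act with the members were counted in 3 lists. Of 13 genes of mitochondrial execution, 5 had a log2 ratio below 0 and 8 above, none was 2-fold different, and the median was 0.06. By library total 4 lay below 0 and 9 above, and by TMM 6 below and 7 above. Apaf1, the scaffold of the apoptosome that forms on released cytochrome c, was the highest, with 1176 reads in BPA and 731 reads in control, a log2 ratio of 0.57, interval 0.44 to 0.71. Htra2, a mitochondrial protease that binds inhibitors of apoptosis once released, was the lowest, with 2089 reads in BPA and 2161 reads in control, a log2 ratio of -0.16. In the death receptor arm, which reaches the members through Bid, 6 of 8 compared genes had a log2 ratio above 0 and 2 below, with a median of 0.24. The adaptor gene Tradd had 401 reads in BPA and 292 reads in control, a log2 ratio of 0.35, interval 0.12 to 0.57. Cflar, which encodes the caspase-8 inhibitor c-FLIP, had 800 reads in BPA and 985 reads in control, a log2 ratio of -0.41, interval -0.55 to -0.28.

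Among 29 compared regulators and binding partners of the members, 14 had a log2 ratio below 0 and 15 above, with a median of 0.00. Ddit3, which encodes the stress-induced transcription factor CHOP, known to activate Bcl2l11 and to repress Bcl2, had 5140 reads in BPA and 1639 reads in control, a log2 ratio of 1.54, interval 1.46 to 1.62. The log2 ratio of Ddit3 was larger in size than that of any member. Bcl2l11 and Bcl2 had log2 ratios of -0.56 and -0.45, and an effect of CHOP on either was not tested. Dynll1, the dynein light chain that binds BIM, had 3604 reads in BPA and 6974 reads in control, a log2 ratio of -1.06, interval -1.12 to -1.01. Scaled by library total, the log2 ratio of Dynll1 was -0.99, just inside 2-fold. Dynll2, the light chain that binds BMF, had 4841 reads in BPA and 3191 reads in control, a log2 ratio of 0.49. Trp53, named with Dynll2 after its values were seen, had 129170 reads in BPA and 159652 reads in control, a log2 ratio of -0.42, and reads of the introduced and the resident copy cannot be told apart.

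**Figure D4:**
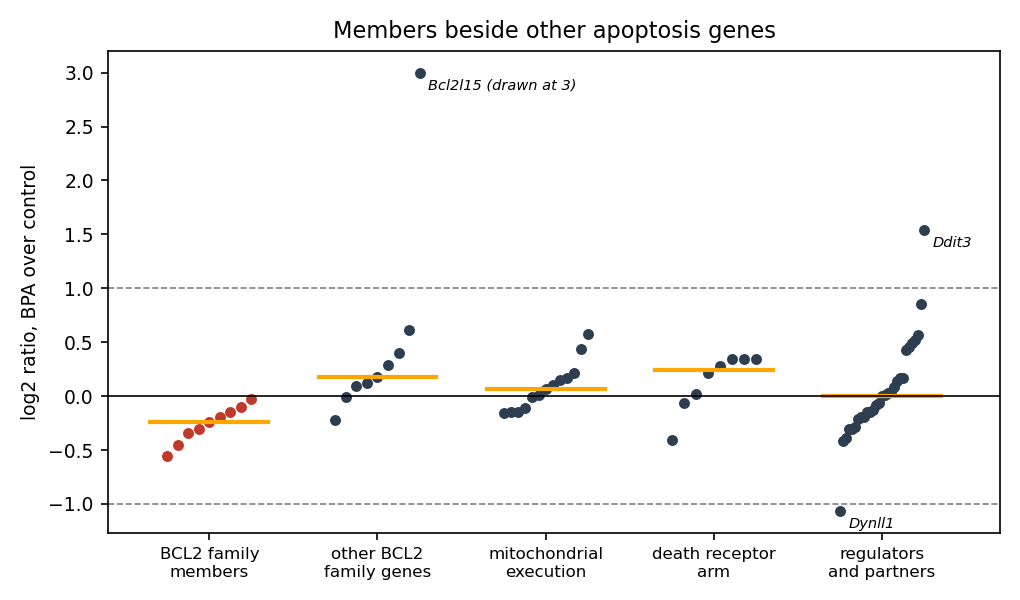
Log2 ratio, BPA over control, of each compared gene in the member list, the other BCL2 family genes and the 3 lists of genes that act with them, with the list median as a bar and dashed lines at 2-fold. The members' points lie below 0 at the deposited scaling (Bmf is above 0 by library total, Mcl1 with the level trend removed), the medians of the other lists lie between 0.00 and 0.24, and Bcl2l15, Ddit3 and Dynll1 lie beyond 2-fold.

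The miRNA libraries of the same RNA were read for 30 mature miRNAs known to act on a member. All 30 were compared among 464 miRNAs. miR-148a-3p, known to target Bcl2l11, dominated both libraries, with 1214362 of 3452574 reads in BPA and 2767490 of 3927981 reads in control, or 35.2% in BPA and 70.5% in control. Ratios are therefore given by the trimmed mean of M values (TMM) and by library total, which differ by 1.68 on the log2 scale for every miRNA. The mature sequences of miRNAs with seed matches in members are shown first, from RefSeq (GRCm38.p6), 5′ to 3′, with the seed (bases 2 to 8) in capitals.
miR-148a-3p (Bcl2l11): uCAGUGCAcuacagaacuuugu
miR-25-3p (Bcl2l11): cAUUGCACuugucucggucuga
miR-93-5p (Bcl2l11): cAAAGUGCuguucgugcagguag
miR-20a-5p (Bcl2l11): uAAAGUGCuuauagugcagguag
miR-16-5p (Bcl2): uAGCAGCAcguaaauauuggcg
miR-29a-3p (Mcl1): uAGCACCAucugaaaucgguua
let-7f-5p (Bcl2l1): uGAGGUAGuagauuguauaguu
miR-221-3p (Bmf): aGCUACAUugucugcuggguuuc
miR-125b-5p (Bak1): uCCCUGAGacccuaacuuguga
miR-93-5p and miR-20a-5p share a seed with miR-17-5p and miR-106b-5p, miR-16-5p with miR-15a-5p, miR-15b-5p, miR-195a-5p and miR-497a-5p, and let-7f-5p with the other let-7 members listed.

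Matches to these seeds were looked for on the transcribed strand of the 3′ untranslated regions (3′ UTRs) of all GENCODE M21 transcripts of the members. The sites of 7 or 8 bases are in capitals with 10 bases on each side (GRCm38.p6). Bcl2l11 held 5 matches for the miR-148a-3p seed, 2 of them of 8 bases, all on the plus strand.
Bcl2l11 chr2:128131250-128131277: gtatctttgcTGCACTGAggaaggaagg
Bcl2l11 chr2:128158468-128158494: gacagcgctcTGCACTGtgtcgatgtg
Bcl2l11 chr2:128159227-128159253: tgcgcttcacTGCACTGcggtggctgt
Bcl2l11 chr2:128162309-128162335: ttagtgaacaGCACTGAtctctgtata
Bcl2l11 chr2:128162399-128162426: ctttacgtttTGCACTGAtgaattttga
Here and below, the 3′ UTR of a gene is merged over its transcripts, so its matches need not lie on 1 mRNA. For Bcl2l11 the merged 6021 bases exceed the longest transcript, at 5036 bases. Among 795 genes whose merged 3′ UTR is within 20% of the 6021 bases of Bcl2l11, 56.7% held at least 1 match for this seed. As many as 5 were held by 1 of these 795 genes, Bcl2l11 itself. Bcl2l11 also held 3 matches for the seed of miR-93-5p and miR-20a-5p, where 7.80% of those genes held as many, and 2 for that of miR-25-3p, where 11.7% held as many. A match is a run of letters and does not show that the site is used.

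For 5 other members, 1 site of 8 bases for a miRNA listed with them is shown.
Mcl1 chr3:95661849-95661876, plus strand, miR-29a-3p: gtcttaaccaTGGTGCTAttcactgggt
Bcl2 chr1:106540788-106540815, minus strand, miR-16-5p: agaaaccctgTGCTGCTAtcctgccaag
Bcl2l1 chr2:152781181-152781208, minus strand, let-7f-5p: aggggcttccCTACCTCAggcaggaagg
Bmf chr2:118528934-118528961, minus strand, miR-221-3p: acccagcgagATGTAGCAtttccttcat
Bak1 chr17:27020306-27020333, minus strand, miR-125b-5p: cggctggactCTCAGGGAttctgagccc
Of genes with a 3′ UTR of like length, at least 1 match was held by 26.2% for the Mcl1 seed, 70.7% for the Bcl2 seed, 25.8% for the Bcl2l1 seed, 39.8% for the Bmf seed and 17.0% for the Bak1 seed. miR-181a-5p, listed for Bcl2, Bcl2l11 and Mcl1, had 852 reads in BPA and 271 reads in control, a log2 ratio of 0.15 by TMM and 1.84 by total. Its seed had 4 matches in Bcl2, where 6.19% of genes with a 3′ UTR of like length held as many, and 1 match each in Bcl2l11 and Mcl1, where 65.4% and 34.1% held at least 1.

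By TMM, miR-148a-3p had a log2 ratio of -2.68, and by library total -1.002, so it was lower in BPA under both scalings. Its target gene on the list, Bcl2l11, was lower in BPA too, and an effect of miR-148a-3p on Bcl2l11 was not tested. The remaining 29 miRNAs had log2 ratios of -0.41 to 1.44 by TMM and of 1.28 to 3.12 by library total. By TMM, 1 listed miRNA was higher in BPA by 2-fold or more (miR-29c-3p, with 34 reads in BPA and 4 reads in control, named for this count) and 1 was lower (miR-148a-3p), beside 12.3% higher and 15.7% lower among all 464. By library total 29 were higher and 1 lower, beside 78% higher and 2.8% lower. The median of the list was 0.16 by TMM and 1.85 by total, beside 0.02 and 1.70 for all compared miRNAs, so the list followed the shift of the whole library under either scaling.

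Of the miRNAs with Bcl2l11 as target, miR-93-5p had 3457 reads in BPA and 642 reads in control, a log2 ratio of 0.93 by TMM and 2.61 by total. miR-25-3p had 55933 reads in BPA and 11738 reads in control, 0.76 by TMM and 2.44 by total. miR-20a-5p had 2039 reads in BPA and 452 reads in control, 0.68 by TMM and 2.36 by total. These were the 3 highest ratios among the 21 listed miRNAs that reached 1000 reads in either library, and miR-25-3p (chr5:138165332-138165353) and miR-93-5p (chr5:138165574-138165596) are neighbours on the minus strand. Among these 21 miRNAs, the one with the lowest ratio and the 3 with the highest ratios have the same target on the list, Bcl2l11. More listed miRNAs had Bcl2l11 as target than any other member. The rest of its listed miRNAs lay between these, from -0.13 (miR-32-5p) to 0.52 (miR-106b-5p) by TMM.

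For Bcl2, miR-16-5p had 4026 reads in BPA and 979 reads in control, a log2 ratio of 0.54 by TMM and 2.23 by total, and miR-34a-5p had 1073 reads in BPA and 373 reads in control, 0.03 by TMM and 1.71 by total. For Mcl1, miR-29a-3p had 8762 reads in BPA and 2838 reads in control, 0.13 by TMM and 1.81 by total. miR-29b-3p, with the same seed, had 1298 reads in BPA and 574 reads in control and changed sign between the scalings, at -0.32 by TMM and 1.36 by total. For Bcl2l1, the most abundant let-7 member was let-7f-5p, with 355319 reads in BPA and 95596 reads in control, 0.40 by TMM and 2.08 by total. The 8 let-7 members spanned -0.37 (let-7e-5p) to 0.40 by TMM. For Bmf and Bak1, miR-221-3p had 4632 reads in BPA and 1618 reads in control, 0.02 by TMM and 1.70 by total, and miR-125b-5p had 8457 reads in BPA and 2604 reads in control, 0.20 by TMM and 1.89 by total.

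**Figure D5:**
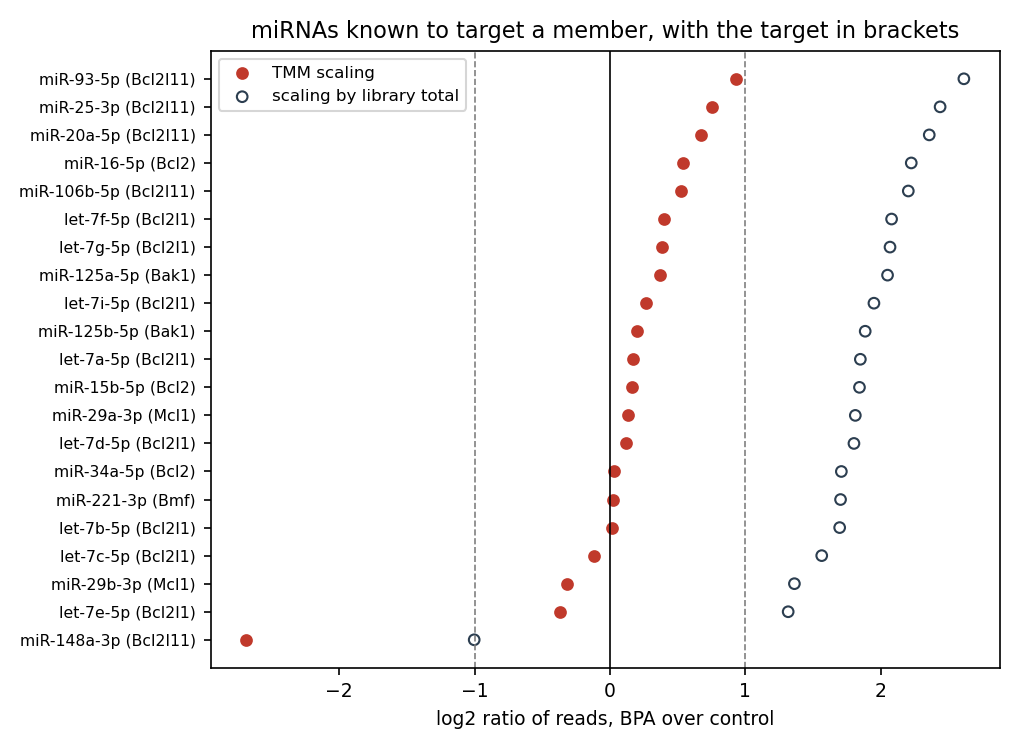
Log2 ratio, BPA over control, of the 21 listed miRNAs that reached 1000 reads in either library, with the member each is known to target in brackets. Filled points are TMM-scaled ratios, open points ratios of library shares, and dashed lines mark 2-fold. miR-148a-3p lies left of 0 under both scalings, and the open points of the other 20 lie right of 1.

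Promoters of all 9 measured members, 15 windows of 300 bases (250 before to 50 after a start), were taken from RefSeq (GRCm38.p6). Their median GC content was 58.7%, with a range of 49.3% to 76%, beside 52.7% for all 32851 promoters. The GC box GGGCGG, searched on both strands as were all motifs, occurred in 8 of the 15 windows, of 7 members, and in 35.7% of all promoters. The elements TGACGTCA (cAMP response), TGATGNAA (C/EBP-ATF), TTTCCCGC (E2F) and TGANTCA (AP-1) occurred in 0 of the 15 windows, and in 1.79%, 3.97%, 1.07% and 7.81% of all promoters. GTAAACA (FOXO) occurred in 1 window, that of Bcl2l11, and in 3.65% of all promoters. The windows of the members with the lowest ratios are shown with GGGCGG and CCGCCC in capitals, 5′ to 3′ on the strand of the gene. Bcl2 held 7 GC boxes, the most of the members, and Bcl2l11 held 3 at this start.
Bcl2 chr1:106714241-106714540, minus strand: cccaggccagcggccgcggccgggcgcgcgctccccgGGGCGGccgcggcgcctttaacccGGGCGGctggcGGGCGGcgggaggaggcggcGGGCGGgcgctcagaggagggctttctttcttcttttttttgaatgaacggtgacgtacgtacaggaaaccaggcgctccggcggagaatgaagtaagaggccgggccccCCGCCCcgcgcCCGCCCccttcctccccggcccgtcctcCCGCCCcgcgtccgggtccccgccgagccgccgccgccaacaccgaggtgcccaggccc
Bcl2l11 chr2:128125788-128126087, plus strand: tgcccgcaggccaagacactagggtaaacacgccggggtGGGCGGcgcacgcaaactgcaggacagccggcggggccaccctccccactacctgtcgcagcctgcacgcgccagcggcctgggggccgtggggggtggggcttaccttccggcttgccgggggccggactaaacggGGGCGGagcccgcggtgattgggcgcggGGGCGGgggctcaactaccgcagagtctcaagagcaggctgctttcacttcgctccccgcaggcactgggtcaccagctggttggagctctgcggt

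The circRNA table listed 9158 circRNAs, and 0 had a member as host gene, so circular products of the members were not detectable at 17586 back-splice events in BPA and 12909 in control. Of the other family genes 2 were hosts: Bcl2l13 had 4 events in BPA and 12 in control, and Bnip3 had 3 events in BPA and 1 in control, summed over their circRNAs.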

How the data were processed

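Values came from 3 deposited tables. The mRNA values were log2 values that the authors had scaled per library. Returned to the linear scale, values of all 22127 genes were whole multiples of a fixed step (0.962 in BPA, 1.04 in control, tolerance 0.001), which gave whole reads for 100% of values. The design had assumed linear values, so the deposited values were returned to that scale, and ratios are log2 ratios of normalised reads plus a pseudocount of 1, which understates ratios of low genes. For miRNA the authors deposited whole read counts, and the authors' TPM columns, per the file headers, were not used. The deposited circRNA log2 values came in steps of 2 on the linear scale, read here as 1 event each. The p-values are the authors' deposited ones, from a comparison of 1 library with 1 by a test not given in the sources used here.

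Per the submitters' processing notes, STAR and StringTie were named for mRNA, STAR for circRNA and Bowtie 1.1.0 for miRNA, with the builds GRCm38 and mm10. The read counter, annotation, strand setting and circRNA caller were not given in the sources used here.

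Samples were grouped by their treatment labels. Genes needed 10 reads and miRNAs the same number in both libraries together. Intervals are exact conditional binomial (Clopper-Pearson) 95% intervals (SciPy 1.17.1). PCR reads without molecular identifiers are not independent molecules, so intervals and the floor of 3 reads cover counting error only. miRNA counts had 0.5 reads added and were scaled by TMM (edgeR 4.0.16). Levels were divided by the union of GENCODE M21 exons. Calculations were tested on simulated data. The members and lists were chosen with earlier results of these data known. Every member is named, and of each other list the genes past 2-fold with at least 50 reads together and the highest and lowest ones, and the listed miRNAs that reached 1000 reads in either library. 0 per-sample columns were left unused. Protein sequences were not used here.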

Additional observations from a re-analysis of the deposited data

How the results depend on the processing

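The log2 ratios of the 9 members lay between -0.56 and -0.03, and were below 0 for all 9 with a pseudocount of 0.5 or 5, with TMM scaling and with the trend over GC content removed. Scaled by library total, which adds 0.08 to every log2 ratio, 8 of 9 were below 0, Bmf was at 0.05, Mcl1 at -0.07 and Bak1 at -0.17, and the median of the members was -0.17 in place of -0.24. With the trend over expression level removed, 8 of 9 were below 0 and Mcl1 reversed to 0.014. Both trend corrections were chosen after seeing the data. No member passed 2-fold under each scaling and pseudocount, and 7 intervals excluded equality under each scaling. The intervals use no pseudocount. The read filters could not change either count, since every member had at least 199 reads in both libraries together. The number of all compared genes past 2-fold was 1938, and 5359 with no filter on low reads and 717 with at least 50 reads together. Listed miRNAs past 2-fold numbered 2 by TMM, 30 by library total and 1 with 5 reads added. By library total 7 listed miRNAs turned from below 0 to above it. For 4 of them (miR-497a-5p, miR-32-5p, miR-15a-5p and miR-222-3p) the TMM interval included equality. For the other 3 it did not: let-7c-5p reversed to 1.56 (TMM -0.12), let-7e-5p to 1.32 (TMM -0.37) and miR-29b-3p to 1.36 (TMM -0.32). The circRNA alternatives gave no value, since no member hosted a circRNA. Ratios of Mcl1, Bcl2l1 and Bcl2 to Bad had the same direction as those to Bak1, with the intervals of Bcl2l1 and Bcl2 to Bad including equality. Ratios of Bcl2l1 and Bcl2 to Bcl2l11 had the opposite direction, with intervals that included equality. No paired analysis was possible because each group had 1 library per RNA class. Depth limits Bmf and Bok, at 100 to 109 reads in BPA and 99 to 103 in control.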
